A study of Mus musculus with 6 samples.

Results

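The Nxpe genes of the mouse colon were compared between the colons of mice exposed over a long term to PFOA (perfluorooctanoic acid, a persistent fluorinated surfactant) and those of control mice. The members are the rows of the authors' deposited count table whose reference gene name starts with Nxpe, and they number 3 of 2033 rows: Nxpe4, Nxpe5 and Nxpe1-ps. The table itself was selected on the counts of these same 6 libraries, and the family was picked with those counts known. RNA sequencing gave 3 PFOA libraries and 3 control libraries from whole colon tissue, made with a SMARTER mRNA-Seq kit. The labels name 6 mice for each group but do not tie them to libraries, so that the spread between libraries may be partly technical, and they give no dose, duration, strain, sex, age or stretch of the colon. A difference in sampled position between the groups therefore cannot be told apart from the exposure.

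NXPE proteins carry a neurexophilin-like domain and a domain related to esterases that act on acyl groups of sugars. In human colon, NXPE1 is known to attach O-acetyl groups to sialic acids, the terminal sugars of many mucin chains, while the mouse counterpart is annotated as a pseudogene. Human NXPE4 and NXPE1 are known as genes of the colon epithelium. Sialic acid O-acetylation, for which Casd1 is the long-known enzyme, shields mucin sugars from bacterial sialidases.

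The table held rows that differ between these same groups. No row lay between -1.08 and 0.92 on the log2 scale of the ratio of mean raw counts (PFOA over control), and 1035 rows were higher and 998 lower in PFOA. The values of the members below therefore describe the rows and test nothing. A gene without a row, such as the family members Nxpe2 and Nxpe3, is not analysed here. Listed counts per library ranged from 2136897 to 2269892 in PFOA and from 1771120 to 2155472 in control, and these sums are not sequencing depths. CPM below is relative to the listed counts, after edgeR's TMM scaling. TMM takes most rows as unchanged, which a table of selected rows does not offer, so the scale between the groups is uncertain. Its factors ran from 0.858 in PFOA replicate 1 to 1.16 in control replicate 1. PFOA replicate 1 differed from the rest of its group along the second principal component of log2 CPM, at 23.5 against -11.73 and -12.78 for PFOA replicates 2 and 3.

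All 3 Nxpe rows were lower in PFOA, and in each the highest PFOA count lay under the lowest control count. Of all 2033 rows, 48.4% were separated in this way in the same direction. Of the 1608 rows that reached the count filter of the quasi-likelihood fit, 100% passed at an adjusted p under 0.05 and 50.0% passed as lower, so the 2 Nxpe rows that could be tested, Nxpe4 and Nxpe5, had to pass. Nxpe1-ps did not reach this filter.

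The family's sequences are shown first because they bear on how its reads can be counted. Nxpe5 lies on chromosome 5 at 138225898 to 138253489 (mm10, plus strand). A short gene before it on the opposite strand, Gm454, lies at 138202134 to 138207310. Its biotype is a transcribed unprocessed pseudogene in the deposited table and a long non-coding RNA in GENCODE M21 and RefSeq. Aligned to the Nxpe5 transcript, Gm454 matched it at 93.5% of 597 alignment columns, and 477 of the aligned Nxpe5 bases are coding. The window in which the 2 copies are most alike holds 149 identical bases of 150 and lies in a coding exon of Nxpe5. It is printed here 5′ to 3′ from GENCODE M21 transcripts (GRCm38), with the differing base in capitals, for Nxpe5 at chr5:138239241-138239390 on the plus strand and for Gm454 at chr5:138204028-138204177 on the minus strand.
Nxpe5: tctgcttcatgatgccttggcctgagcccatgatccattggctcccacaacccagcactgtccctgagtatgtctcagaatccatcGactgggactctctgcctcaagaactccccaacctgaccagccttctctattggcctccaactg
Gm454: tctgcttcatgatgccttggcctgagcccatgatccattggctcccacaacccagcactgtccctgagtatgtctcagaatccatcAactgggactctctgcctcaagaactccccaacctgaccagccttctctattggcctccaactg

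Nxpe4 and Nxpe1-ps lie next to each other on chromosome 9. The Nxpe4 row covers 48162023 to 48400025 and the Nxpe1-ps row 48418321 to 48431959, both on the plus strand, with 18295 bases between them. The full alignment of their transcripts was 71.9% identical over 1489 columns, with 1443 of the aligned Nxpe4 bases coding. Their most alike window of 150 bases, in an Nxpe4 coding exon, differs at 3 bases, again in capitals, for Nxpe4 at chr9:48392943-48393092 and for Nxpe1-ps at chr9:48420308-48420457.
Nxpe4: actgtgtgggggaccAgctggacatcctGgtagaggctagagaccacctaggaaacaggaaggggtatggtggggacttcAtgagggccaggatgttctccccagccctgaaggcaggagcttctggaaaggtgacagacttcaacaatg
Nxpe1-ps: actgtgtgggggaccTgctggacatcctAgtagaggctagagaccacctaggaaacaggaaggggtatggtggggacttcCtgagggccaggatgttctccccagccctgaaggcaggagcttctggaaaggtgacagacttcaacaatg

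These stretches set which rows could draw on the same reads. The longest exact run shared by transcripts was 86 bases for Nxpe5 and Gm454, 73 bases for Nxpe4 and Nxpe1-ps, and 15 bases for Nxpe4 and Nxpe5. Nxpe4 and Nxpe5 shared 0 words of 31 bases on either strand. Gm454 shared 197 of its 721 such words with Nxpe5, which were 4.33% of the words of Nxpe5. Nxpe1-ps shared 89 of its 1832 words with Nxpe4, which were 1.49% of the words of Nxpe4. Nxpe2, a further family member, lies on the opposite strand inside the span of Nxpe4, shares 0 exon bases with it by position, and has a longest shared run of 51 bases with it. How reads with several matches were treated, and whether strand was used in counting, is not stated in the labels or the table, so that Gm454 and Nxpe5, and likewise Nxpe1-ps and Nxpe4, are uncertain as separate rows.

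Nxpe5, annotated in the table as a protein with a neurexophilin domain, was by far the most abundant member. It had 554, 1666 and 1962 counts in the PFOA libraries and 3637, 4067 and 4288 counts in the control libraries. The lowest control library lay 1675 counts above the highest PFOA library, and PFOA replicate 1 was well under the other PFOA libraries. On the CPM scale its level averaged 664 ± 325 in PFOA and 1890 ± 106 in control (SD, n = 3 each). The fitted log2 fold change was -1.51 ± 0.39 (SE), a mean 2.85-fold lower in PFOA. Without PFOA replicate 1 it was -1.19, with an SE of 0.19.

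PFOA replicate 1 set most of the spread of Nxpe5. In log2 CPM, the difference between this library and the mean of the other PFOA libraries was -1.51 for Nxpe5. Of the 804 tested rows that were lower in PFOA, 43 showed a difference at least as low, and the median over these rows was -0.07. For Nxpe4 the difference was -0.09. The same library had a summed level of goblet cell markers (9 rows) of 149862 CPM, against 291343 and 332221 CPM in PFOA replicates 2 and 3. Its summed level of colonocyte markers (14 rows) was 121268 CPM, against 45321 and 48812 CPM there. Single rows of the lists went different ways. A row of the mucin gene Muc2 had 40835 CPM in PFOA replicate 1, against 104005 and 137509 CPM in replicates 2 and 3. Fcgbp, of the same goblet list, was highest there, at 44403 against 35848 and 22495 CPM. Of the colonocyte rows, Car1 had 66845 against 18611 and 23279 CPM, while Car4 was lowest there, at 2032 against 2878 and 2467 CPM. The sums thus do not give cell content. The part of these markers in the low Nxpe5 count was not tested.

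Nxpe4, the member with a human counterpart of the same name in colon epithelium, was a row of low counts. It had 24, 24 and 36 counts in PFOA and 85, 66 and 53 counts in control. The groups did not overlap, with a gap of 17 counts. Its level averaged 13.6 ± 2.83 CPM in PFOA and 32.4 ± 8.70 CPM in control (SD, n = 3 each), and the fitted log2 fold change was -1.24 ± 0.35 (SE). The control libraries differed more than the PFOA libraries, between 24.0 and 41.3 CPM. Counting error alone amounts to an SD of 0.294 on the log2 scale at the lowest count of 24.

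Nxpe1-ps, the transcribed pseudogene of the family, was near the limit of detection. It had 2, 0 and 3 counts in PFOA and 9, 10 and 8 counts in control. The count of 0 in PFOA replicate 2 allows up to 3 counts, or 1.41 CPM, while the control libraries held 3.62 to 4.83 CPM. Over each group the row had 5 counts in PFOA and 27 in control, a scaled ratio of 0.191 with a 95% exact binomial counting interval from 0.0574 to 0.503. The log2 value of this ratio was -2.39, and it moved to -1.73 without PFOA replicate 2 and to -3.08 without PFOA replicate 3. These intervals cover counting error only.

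**Figure D1:**
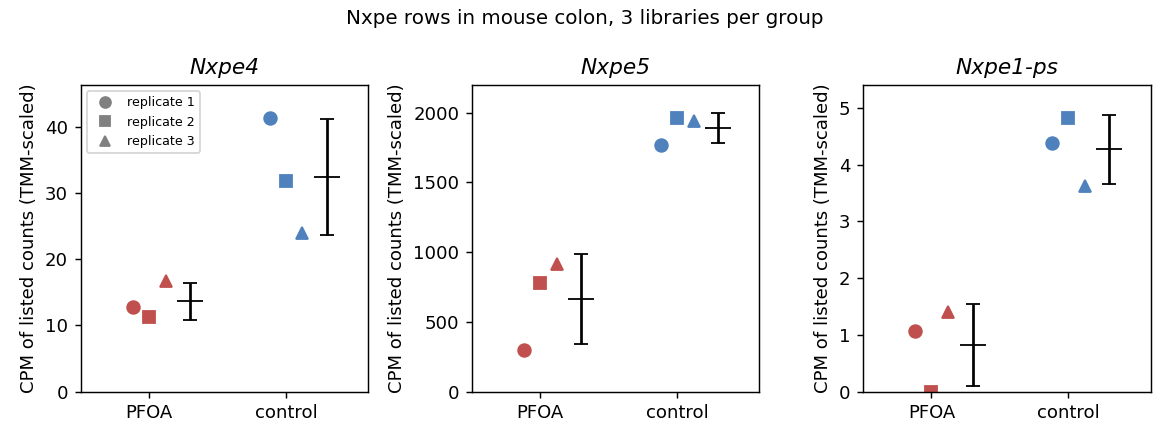
Level of each Nxpe row in CPM of listed counts after TMM scaling (vertical axes, each from 0), with 1 point per library, PFOA left of control; the black bar is the group mean with its SD (n = 3). All PFOA points lie below all control points in each panel, and the PFOA spread of Nxpe5 comes from replicate 1 at 296 CPM against 782 and 913 CPM.

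Compared per length, the order of the members was the same in both groups. Using the row lengths of the table (4599 bases for Nxpe5, 5911 for Nxpe4 and 1806 for Nxpe1-ps), Nxpe5 averaged 144 CPM per kb in PFOA and 411 in control. Nxpe4 averaged 2.30 CPM per kb in PFOA and 5.48 in control. Nxpe1-ps averaged 0.455 CPM per kb in PFOA and 2.37 in control. No value of 1 member overlapped with that of its neighbour in this order within a group. How the lengths of the table were derived is not stated, so that the levels per length are approximate.

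The ratio of the 2 coding members within a library does not depend on the scaling between libraries. Nxpe5 counts over Nxpe4 counts were 23.1, 69.4 and 54.5 in PFOA and 42.8, 61.6 and 80.9 in control. The groups overlapped, at 49.0 ± 23.7 in PFOA and 61.8 ± 19.1 in control (SD, n = 3 each). PFOA replicate 1 had the lowest ratio, with a 95% exact binomial counting interval of 15.4 to 36.3, and the nearest library, control replicate 1, had an interval of 34.5 to 53.7.

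Gm454 followed Nxpe5 library by library. It had 38, 110 and 117 counts in PFOA and 223, 289 and 259 counts in control. As a share of the counts of both rows it was 6.42%, 6.19% and 5.63% in PFOA and 5.78%, 6.64% and 5.70% in control. The share averaged 6.08% ± 0.41 in PFOA and 6.04% ± 0.52 in control (SD, n = 3 each), while the Nxpe5 count itself ranged from 554 to 4288. The 95% exact binomial counting interval was 4.58% to 8.70% in PFOA replicate 1, the library with the fewest counts, and 5.91% to 7.42% in control replicate 2, which had the highest share. Reads of the near-identical stretch printed above could be assigned to either row, and the part of such reads in the constant share was not tested.

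**Figure D2:**
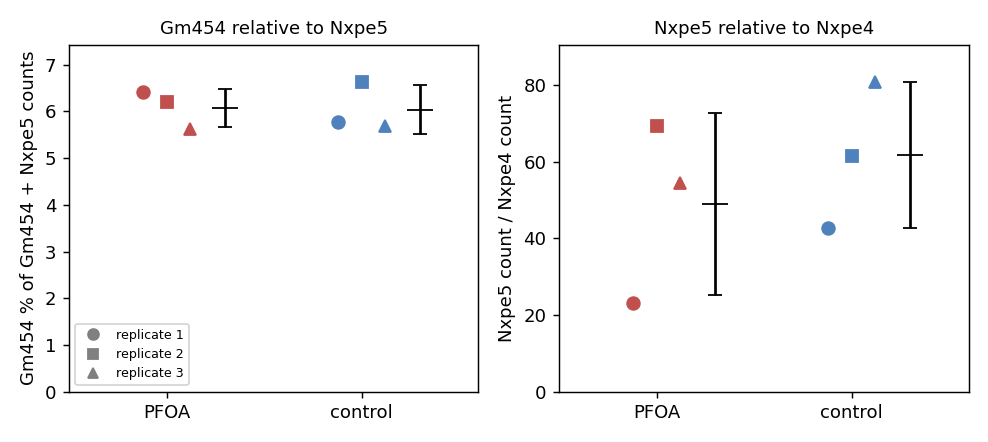
Left, Gm454 counts as a percentage of Gm454 plus Nxpe5 counts; right, Nxpe5 counts divided by Nxpe4 counts; 1 point per library, PFOA left of control, with the group mean and SD (n = 3) in black. The Gm454 share stays between 5.63% and 6.64% in all 6 libraries, while the ratio of Nxpe5 to Nxpe4 overlaps between the groups and is lowest in PFOA replicate 1.

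By likeness of profile, Gm454 was also the row nearest to Nxpe5. Likeness was the root mean square distance between row-centred log2 CPM over the 6 libraries, ranked over the rows with a single reference symbol and a mean of at least 5 CPM. Gm454 lay at a distance of 0.104, Gm26652 at 0.149 and Capn8, a calpain protease of the digestive tract, at 0.196, against a median of 0.658 for rows lower in PFOA. Capn8 averaged 341 ± 164 CPM in PFOA and 776 ± 47.7 CPM in control (SD, n = 3 each), with PFOA replicate 1 again lowest. The distance shares the group difference by which the rows entered the table. It also takes in PFOA replicate 1, so a low value there in the nearest rows follows from how they were picked. Gm26652 had only 2, 9 and 9 counts in PFOA.

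The rows nearest to Nxpe4 were Gm38099 at 0.093, Gpihbp1, the anchor of lipoprotein lipase on capillaries, at 0.144 and Rims1, a presynaptic scaffold protein, at 0.146, with a median of 0.526 for rows lower in PFOA. All 3 share with Nxpe4 a highest control value in replicate 1, which a choice by distance favours. The rows nearest to Nxpe1-ps were Gm7932 at 0.171, Macc1, a regulator of the Met receptor gene, at 0.206 and Thpo, which encodes thrombopoietin, at 0.230. Between the members, the distance was 0.404 for Nxpe4 and Nxpe1-ps, 0.597 for Nxpe4 and Nxpe5 and 0.726 for Nxpe5 and Nxpe1-ps. The medians for rows lower in PFOA were 0.526 for Nxpe4, 0.658 for Nxpe5 and 0.585 for Nxpe1-ps. Only the distance of Nxpe4 and Nxpe1-ps lay under the medians of both its members.

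**Figure D3:**
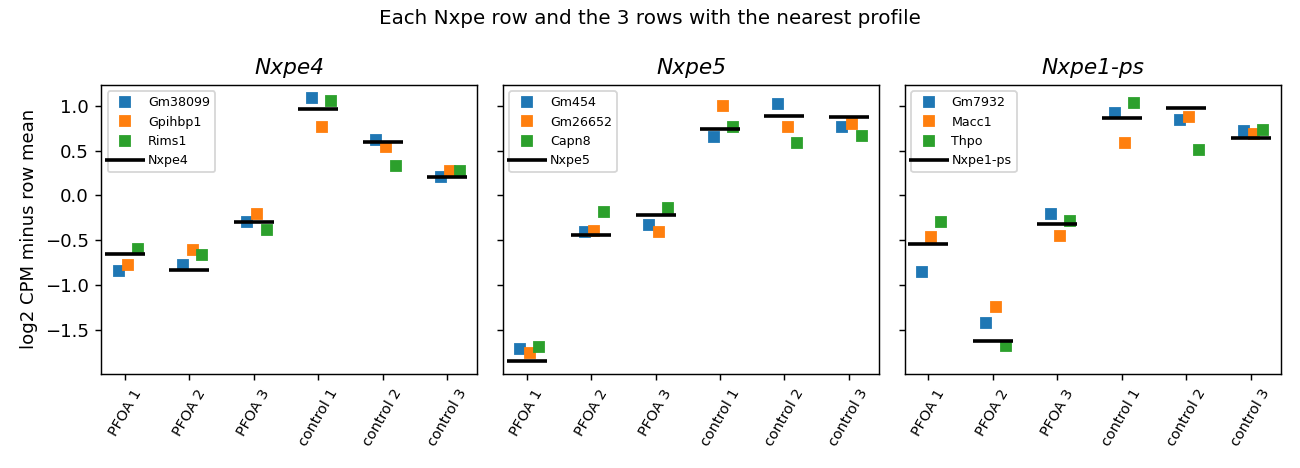
Row-centred log2 CPM (vertical axis) in the 6 libraries, PFOA left of control, for each Nxpe row (black bars) and the 3 rows with the smallest root mean square distance to it (coloured squares). In the Nxpe5 panel the low value of PFOA replicate 1 is seen in Gm454, Gm26652 and Capn8 too. In the Nxpe1-ps panel PFOA replicate 2 is lowest. The rows were picked by distance over these same 6 libraries, so such shared values follow from the choice.

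The surroundings of Nxpe5 held 6 listed rows within 1 Mb, of which 4 were lower and 2 higher in PFOA. Of all 2033 rows, 998 were lower. The rows closest to Nxpe5 were all lower. An unnamed assembled row lies 531 bases past the end of Nxpe5, and the table lists it as protein-coding with a neurexophilin domain. This row had 0, 8 and 3 counts in PFOA and 15, 18 and 17 counts in control. With it, 4 rows of the table carry that domain, and it is no member by name. Further away, Nyap1, an adaptor of neuronal signalling, was higher at 188 ± 27.7 CPM in PFOA and 54.4 ± 3.28 CPM in control (SD, n = 3 each). Fam20c, a kinase of secreted proteins, was lower at 49.9 ± 12.5 CPM in PFOA and 107 ± 37.5 CPM in control (SD, n = 3 each).

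Gm454 and Nxpe5 point away from each other. By the deposited positions, 18587 bases lie between them, but RefSeq (GRCm38.p6) has an earlier start of Nxpe5 at 138207499, only 149 bases from the start of Gm454 at 138207349. The RefSeq promoter window of Gm454 covers both starts. Whether the earlier Nxpe5 start is used in these libraries was not tested, nor was any part of this window in the lower counts. The window reads 5′ to 3′ on the minus strand of chr5:138207300-138207599, with the bases between the starts in capitals.
Gm454 window: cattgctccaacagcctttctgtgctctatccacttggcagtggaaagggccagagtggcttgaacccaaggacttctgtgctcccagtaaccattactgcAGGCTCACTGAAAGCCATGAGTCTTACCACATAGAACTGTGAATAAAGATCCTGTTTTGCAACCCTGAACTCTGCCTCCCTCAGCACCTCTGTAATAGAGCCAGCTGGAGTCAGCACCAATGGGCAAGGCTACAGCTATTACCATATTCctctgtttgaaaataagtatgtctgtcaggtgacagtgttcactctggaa

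On both strands, 5 motifs were looked for in this window and in the RefSeq windows of Nxpe5 and Nxpe4, of 300 bases each, which lie around later starts within these genes. The only match was 1 copy of the core promoter box (letters TATAAA) in the Nxpe4 window, and 13.6% of 32851 RefSeq windows hold these letters. The core of the Cdx and posterior Hox factors was searched as TTTATNG, which 10.9% of windows hold. The core of the GATA factors was searched as AGATAA, held by 11.2% of windows. The element of the nuclear receptor HNF4 was searched as CAAAGTCC, held by 1.42% of windows. The direct repeat bound by PPAR with RXR was held by 0.04% of windows. None of these last 4 was among the letters of these 3 windows.

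The surroundings of Nxpe4 and Nxpe1-ps held only rows that were lower in PFOA, where 998 of all 2033 rows were lower. Besides the other member, 8 listed rows lay within 1 Mb of Nxpe4. Zbtb16, a zinc finger transcription factor, had 1418, 2365 and 3320 counts in PFOA and 7707, 8972 and 8490 counts in control, a log2 fold change of -1.80 ± 0.29 (SE). Another 6 are assembled loci without a reference symbol inside the span of Zbtb16, with log2 ratios of mean CPM between -2.32 and -1.07. Their reads may be part of the Zbtb16 transcript, so that these rows may not be separate loci and their shared direction adds little. Htr3a, a subunit of the serotonin-gated ion channel, had a log2 fold change of -1.11 ± 0.33 (SE).

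**Figure D4:**
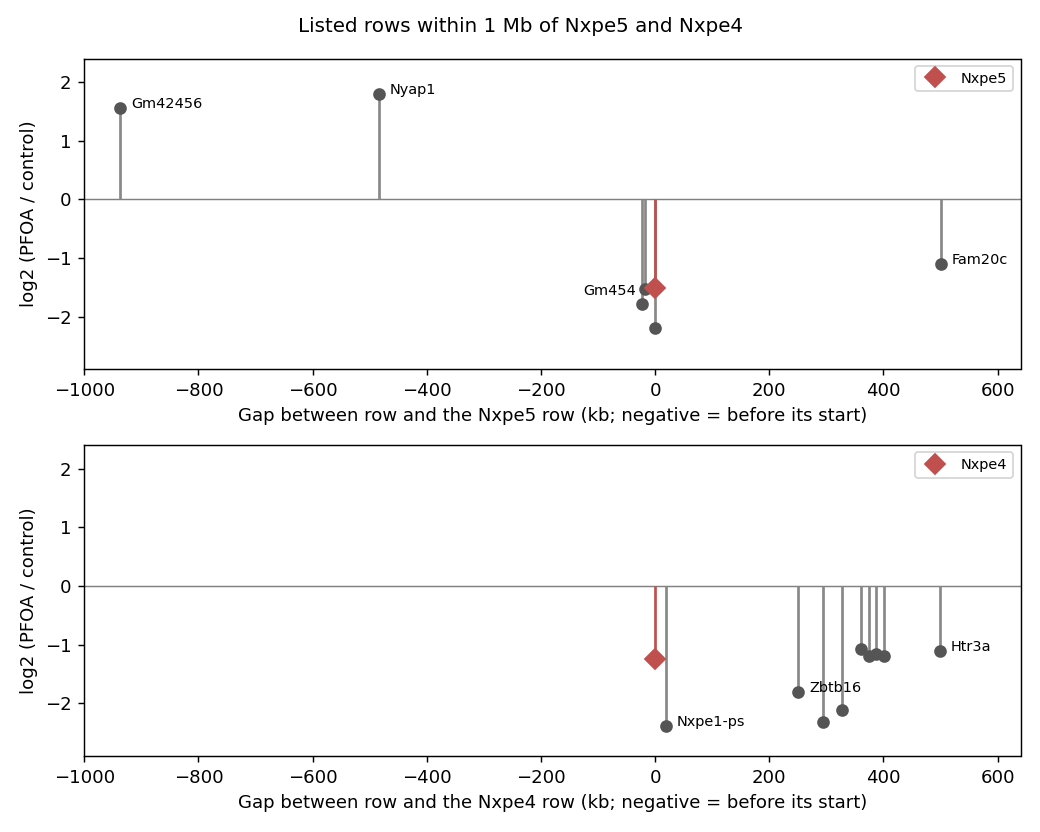
Log2 ratio of mean CPM, PFOA over control, of the listed rows within 1 Mb of Nxpe5 (top) and Nxpe4 (bottom), against their gap to the Nxpe row in kb; red diamonds mark the Nxpe rows and unlabelled points are rows without a reference symbol. The 3 rows closest to Nxpe5 are lower in PFOA while Nyap1 and Gm42456 are higher, and the rows past Nxpe4 are all lower. Of all 2033 rows, 998 are lower.

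Other genes of sialic acid metabolism were read beside the family from a list of 34 genes. Of these, 8 had a row, with 5 lower and 3 higher in PFOA, where 50.0% of all tested rows were lower. Their median log2 fold change was -1.67. The median over all tested rows, -0.03, falls in the gap that the table leaves, between a median of -1.80 for the lower and 1.71 for the higher rows, so a shift of the list cannot be read from its median. Casd1, the sialic acid O-acetyltransferase of the Golgi, had 1359, 1671 and 1650 counts in PFOA and 5523, 5410 and 5585 counts in control. Its groups were far apart and tight within themselves, at a log2 fold change of -1.78 ± 0.19 (SE), beside -1.51 for Nxpe5 and -1.24 for Nxpe4. Nans, which makes the sialic acid precursor, had 1846, 1812 and 2000 counts in PFOA and 6491, 5490 and 5110 counts in control.

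Neu3, a sialidase acting on gangliosides, had 45, 58 and 33 counts in PFOA and 158, 151 and 208 counts in control. St8sia5, a sialyltransferase of gangliosides, had 0, 0 and 2 counts in PFOA and 145, 95 and 220 counts in control. St3gal6, a sialyltransferase named here after its values were seen, had 608, 3113 and 2807 counts in PFOA and 9568, 11138 and 13929 counts in control. As in Nxpe5, its PFOA replicate 1 was the lowest library by a wide margin. The rows higher in PFOA were Cmah, which makes the glycolyl form of sialic acid, and the sialyltransferases St3gal1 and St3gal5. St3gal5 was higher through PFOA replicate 1 alone, with 1095, 83 and 71 counts in PFOA and 55, 77 and 93 counts in control, and the other PFOA libraries lay within the control range.

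Mucin O-glycan genes went both ways. Of 28 listed genes, 9 had a row, with 4 lower and 5 higher in PFOA and a median log2 fold change of 1.15, subject to the same gap. B3gnt7, an acetylglucosaminyltransferase, was lower at 112 ± 45.0 CPM in PFOA and 5726 ± 1324 CPM in control (SD, n = 3 each). B3gnt5, which starts lacto-series glycolipids, was lower too, at a log2 fold change of -2.95 ± 0.21 (SE). B3gnt6, the core 3 synthase, and Gcnt4, a branching enzyme of core 2 chains, were higher, at 3.27 ± 0.33 and 3.37 ± 0.32 on the log2 scale (SE). Fut4, a fucosyltransferase, and Gcnt1, a core 2 branching enzyme, were the other lower rows, so that neither list lay as a whole with the Nxpe rows or opposite to them. Of the 804 lower rows of the table, 519 had a larger fall than Nxpe5 and 655 a larger fall than Nxpe4.

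**Figure D5:**
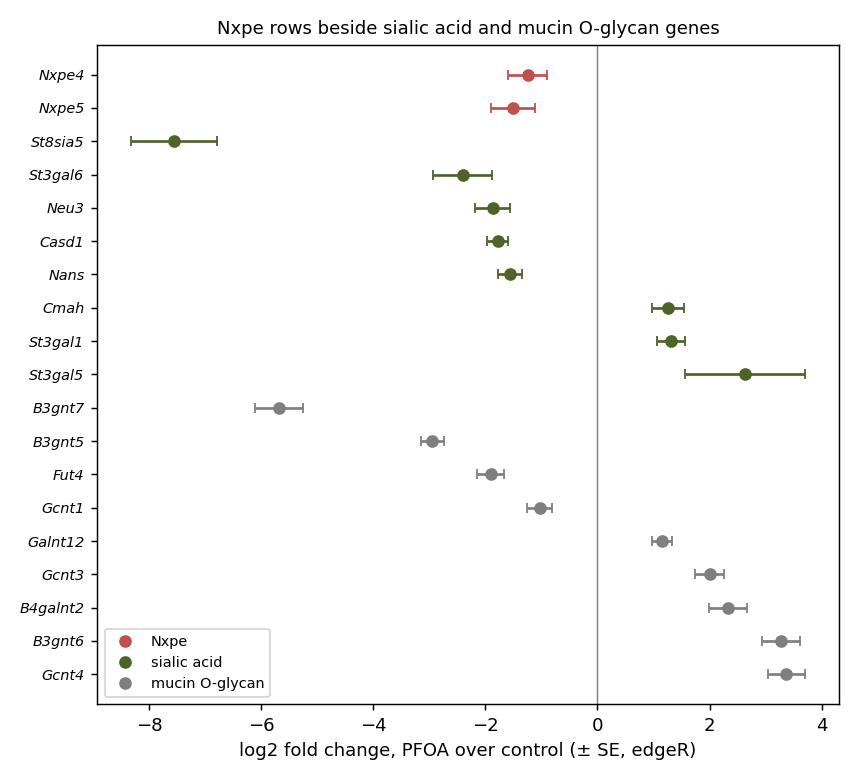
Fitted log2 fold change, PFOA over control, with its SE (edgeR, n = 3 per group) for the Nxpe rows that could be tested (red), the sialic acid rows (green) and the mucin O-glycan rows (grey). Both lists hold rows on either side of 0, with 5 of 8 sialic acid rows and 4 of 9 mucin O-glycan rows lower in PFOA, and Nxpe4 and Nxpe5 lie among the lower rows of both.

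Cell type markers could be read only as far as they have rows. Of the 10 general epithelial markers and the 18 smooth muscle, stromal and immune markers, 0 had a row, so that the epithelial share of the tissue is not read here. In bulk tissue, fewer Nxpe-expressing cells and less Nxpe RNA per cell cannot be told apart. Goblet cell markers had 4 rows higher in PFOA, 3 of them of the mucin gene Muc2, and 5 lower, and their summed level was 149862 to 332221 CPM in PFOA and 146019 to 265719 CPM in control. Colonocyte markers had 3 rows higher and 11 lower, with sums of 45321 to 121268 CPM in PFOA and 62430 to 101440 CPM in control. These sums overlapped between the groups, but each adds rows of opposite direction and is set by a few abundant genes, among them Car1, a carbonic anhydrase, and Muc2. Row by row, the 11 lower colonocyte rows did not overlap between the groups. The same held for 984 of the 998 rows lower in PFOA, or 48.4% of all 2033 rows, so it sets neither these rows nor the Nxpe rows apart. The 3 higher rows were Car1, Emp1 and Guca2a. The median log2 fold change of the list was -1.90, subject to the same gap as above, where all lower tested rows had a median of -1.80. Atp12a, a proton pump of the distal colon, had 98, 157 and 130 counts in PFOA and 9456, 14594 and 22953 counts in control. The part of colonocyte content in the lower Nxpe counts was not tested.

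Most rows of posterior gut identity were lower in PFOA, as the Nxpe rows were, but Cdx2 was higher. Of all tested rows, 50.0% were lower, so the shared direction alone sets neither apart. The 6 posterior rows, 5 of them lower in PFOA, summed to 1717 to 2492 CPM in PFOA and 4189 to 7476 CPM in control. Cdx2, the 1 higher row, had 2468, 1666 and 1892 CPM in PFOA and 301, 634 and 393 CPM in control. It made up most of the PFOA sums, so these hide how low the other rows were. Hoxb13, a homeobox gene of the hindgut, had 0, 6 and 3 counts in PFOA and 9884, 5730 and 7988 counts in control. Evx2 was at 0 in all PFOA libraries, and Hoxd13 and Hoxd12 were at 0 in some of them. Small intestinal enterocyte markers, with 4 of 5 rows higher in PFOA, summed to 7063 to 10584 CPM in PFOA and 2106 to 2734 CPM in control. These sums were set mostly by Mep1a, at 1810 to 2217 CPM in control, and in PFOA by Fabp2 as well. Rbp2, the 1 lower row, had 77.0, 32.4 and 36.8 CPM in PFOA and 207, 249 and 220 CPM in control. Adipocyte markers, in 4 rows, summed to 69.0 to 519 CPM in PFOA and 9.50 to 37.7 CPM in control. Within PFOA the sum was lowest in replicate 2, where Plin1 and Adipoq were at 0. In that library Cidec alone gave 67.6 CPM of the 69.0 CPM. Cfd, at 1.41 CPM there, lay within its control range of 1.36 to 15.6 CPM. Whether gut position or these cell types had a part in the lower Nxpe counts was not tested.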

How the data were processed

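Per the labels' protocols, colon RNA was made into libraries with a SMARTER mRNA-Seq kit, and HISAT2, HTSeq and the mm10 build are listed, with no version or order, per the submitters' processing notes. The authors deposited 1 table of raw read counts per gene row. Of its 2033 rows, 1439 carry the identifier of an assembled locus, and many of these, such as the 3 Nxpe rows, have a reference gene name. Neither the labels nor the header states the assembler, the strand setting or the rule that selected rows. The 6 count columns were matched to samples by the description in the labels.

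Counts were fitted with edgeR 4.0.16 (R 4.3.3) over all rows: filterByExpr, TMM, glmQLFit and glmQLFTest, PFOA against control without covariates, Benjamini-Hochberg over the 1608 rows kept. The SE of a log2 fold change is its size divided by the square root of F. Plain folds are ratios of mean CPM, the Nxpe1-ps ratio is one of summed counts scaled by TMM-adjusted totals, and log2 CPM used a prior count of 2. This fit was tested on simulated data. Within a group, log2 CPM of 2 libraries correlated at 0.951 or more across rows, and no pair agreed within sampling noise (lowest chi-square per degree of freedom 19.3). Transcripts came from GENCODE M21 and promoter windows from RefSeq (GRCm38.p6).

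The members and gene lists were chosen with earlier results of these data known. Named genes were the 3 nearest profiles per member, up to 4 rows of smallest p per list, and listed rows within 1 Mb; some further rows were named for their place in a list. Alternatives were DESeq2 1.42.0, limma-voom (limma 3.58.1), other scalings and filters, a replicate block and each library left out.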

Additional observations from a re-analysis of the deposited data

How the results depend on the processing

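Nxpe4 and Nxpe5 stayed lower in PFOA, and past the threshold, under all 13 alternatives run. Since all 1608 tested rows passed in the main fit, passing again was nearly fixed in advance and tests nothing. The log2 fold change of Nxpe4 lay between -1.46 and -1.21 under other tools, scalings, filters and the block, and between -1.54 and -1.08 with 1 library left out. For Nxpe5 these ranges were -1.68 to -1.57, each a larger fall than the -1.51 reported, and -1.80 to -1.19. Nxpe1-ps stayed lower under the 11 alternatives that gave it a value, between -3.08 and -1.73 with 1 library left out and between -2.59 and -2.38 otherwise; limma-voom and the block, run on filtered rows, gave it none. Rows called higher numbered 721 to 1033 and rows called lower 799 to 998, while the number of rows tested changed with the filter and the libraries. In the main fit 804 of 1608 tested rows were called higher and 804 lower (50.0% each). With DESeq2 on the same rows these counts were 797 and 804. Scaling by library totals alone shifted log2 fold changes by -0.20 relative to TMM. Every scaling used the same selected rows, so their likeness does not settle the scale between the groups.

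With the replicate number as a block, the log2 fold change was -1.23 for Nxpe4 and -1.66 for Nxpe5. Of the 1608 tested rows, 780 were called higher and 799 lower, and no call of a member changed. Deviations from the group means correlated across rows at 0.11, -0.03 and 0.10 for replicates 1, 2 and 3 of the groups, and PFOA replicate 2 correlated best with control replicate 3, so the numbers were not taken as pairs. The low counts of Nxpe1-ps and Nxpe4 limit their precision, and a selected table cannot show how the family compares with unlisted genes.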
